A study of Mus musculus with 6 samples.

Results

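The E2F family and its pocket proteins were examined in primary mouse embryonic fibroblasts (MEFs) given erastin. The 10 genes were E2f1 to E2f8, Rbl1 and Rbl2, taken by symbol from the 43346 genes of the deposited count table through the GENCODE M21 annotation, and all 10 were found and passed the filter on low counts. The cells were C57BL/6 MEFs at passage 9, a mixed fibroblast culture with a limited life span, given 3 µM erastin for 24 h (3 libraries) or DMSO (3 libraries), with no separate exposure time stated for DMSO. Erastin is a small molecule that blocks cystine uptake and is used to induce ferroptosis, an iron-dependent form of cell death. The labels list 2-mercaptoethanol, a reducing agent, in the growth medium of both groups and give no other difference between them. The labels do not say whether the 3 libraries of a group came from separate embryos or cultures, so the p-values below measure only the spread between these libraries, which may be technical.

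E2F proteins are transcription factors that bind promoters of genes for DNA replication and cell division. E2F1, E2F2 and E2F3 are known as activators. E2F4 and E2F5 are known as repressors that act with pocket proteins, E2F6 represses without them, and the atypical E2F7 and E2F8 repress without a DP partner or a pocket protein. The pocket proteins are the retinoblastoma protein (Rb1) and its relatives p107 (Rbl1) and p130 (Rbl2). They hold E2Fs in check until cyclin-dependent kinases phosphorylate them. In resting cells p130 with E2F4 and the MuvB core forms the DREAM complex, and several E2F genes are themselves targets of E2Fs in cycling cells.

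Promoter sequence is shown for 3 genes whose transcripts fell with erastin and for E2f3, which did not pass the test, because E2F or CHR letters occur among genes of either outcome. The sequences are RefSeq windows of GRCm38.p6, and each gives the 250 bases before the annotated start, 5′ to 3′ on the gene's strand. Capitals mark E2F letters (TTTCCCGC, TTTCGCGC, TTTGCCGC or TTTGGCGC) and letters of the cell cycle homology region, CHR (TTTGAA or TTCGAA), on either strand. E2f7 lies at chr10:110745189-110745438 (+), E2f8 at chr7:48881597-48881846 (-), Rbl1 at chr2:157204535-157204784 (-) and E2f3 at chr13:29986064-29986313 (-).
E2f7: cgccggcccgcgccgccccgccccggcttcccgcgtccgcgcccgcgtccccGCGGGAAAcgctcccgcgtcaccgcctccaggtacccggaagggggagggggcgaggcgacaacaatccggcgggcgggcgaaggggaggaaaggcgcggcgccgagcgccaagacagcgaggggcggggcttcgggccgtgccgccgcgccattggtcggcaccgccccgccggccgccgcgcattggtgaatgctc
E2f8: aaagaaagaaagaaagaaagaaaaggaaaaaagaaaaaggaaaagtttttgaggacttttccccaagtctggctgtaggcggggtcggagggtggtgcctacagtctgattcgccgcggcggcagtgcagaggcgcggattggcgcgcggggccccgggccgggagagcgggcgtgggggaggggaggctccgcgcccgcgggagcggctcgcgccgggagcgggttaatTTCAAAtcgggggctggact
Rbl1: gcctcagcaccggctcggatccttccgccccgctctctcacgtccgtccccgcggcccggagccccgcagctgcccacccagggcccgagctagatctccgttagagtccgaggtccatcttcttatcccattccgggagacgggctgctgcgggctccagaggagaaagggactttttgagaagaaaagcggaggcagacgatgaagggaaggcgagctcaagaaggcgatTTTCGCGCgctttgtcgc
E2f3: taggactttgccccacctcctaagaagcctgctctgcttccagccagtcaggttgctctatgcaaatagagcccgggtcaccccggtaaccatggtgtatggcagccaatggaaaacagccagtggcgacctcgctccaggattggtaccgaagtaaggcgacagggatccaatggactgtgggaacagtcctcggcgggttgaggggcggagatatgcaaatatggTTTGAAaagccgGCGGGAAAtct

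In the E2f7 window an E2F match lay 198 to 191 bases before the start. In Rbl1 it lay 18 to 11 bases before the start, and no motif overlapped another in any window. E2f8 had a CHR match 20 to 15 bases before the start. The E2f3 window had both, a CHR match at 23 to 18 and an E2F match at 11 to 4 bases before the start. RefSeq windows were matched for 8 of the 10 genes, 10 windows in all, since E2f2 and E2f3 have 2 each. E2f5, which fell, and E2f4, which did not pass, had no window and were not searched. By position, the E2f1 window and the downstream windows of E2f2 and E2f3 lie inside the GENCODE spans of these genes. The CHR match of E2f2 is in such a window. An E2F match was in 3 of these 10 windows and in 1.86% of all 32851 windows of the same length, and a CHR match was in 4 of 10 and in 17.1% of all. The CHR matches not shown above were in windows of E2f2 and Rbl2, which did not pass the test. Neither motif was in the window of E2f6, which fell, or of E2f1, which did not pass. For E2f1 the bases before its GENCODE start were not searched, so this absence does not describe them. These matches are descriptions of letters and do not show that a factor bound there.

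Library totals ran from 13333911 to 20509970 counts, and a gene with 3 reads stood at 0.14 to 0.23 CPM (counts scaled to the library total with TMM factors), taken as the lowest detectable level for counting error only. In a principal component analysis of the tested genes the first component (60.4% of the variance) separated erastin from DMSO, and the second (14.5%) set DMSO replicate 3, at -43.9, apart from DMSO replicates 1 and 2 (30.6 and 19.6). Chi-square values per degree of freedom were 11.0 to 19.2 for pairs within a group, so no pair agreed within sampling noise. The fibroblast label was checked with 12 markers, all detected, whose summed level was 35837 to 38833 CPM in DMSO and 25709 to 27154 CPM with erastin, with 9 of 12 lower by the test used below. Markers of 5 other lineages were summed in each library. Leukocyte genes reached at most 21.6 CPM, and 0 of 6 passed the test. Cd68 came nearest, with a log2 fold change of 1.06 and overlapping groups (adjusted p by edgeR = 0.0548). The sums were at most 16.4 CPM for endothelial genes and 3.17 CPM for epithelial genes (5 genes, of which 1 could be tested and did not pass). Those for pluripotent and neural genes and for muscle genes were at most 156 CPM and 68.4 CPM. The neural sum was nearly all Nes, which rose, and Tubb3, which fell, and the muscle sum was nearly all Des, which rose from 40.6 ± 4.97 to 66.7 ± 1.95 CPM (± SD, n = 3 each, with adjusted p by edgeR = 0.00288, 0.00032 and 5.37e-05 for Nes, Tubb3 and Des). The endothelial genes Kdr and Tek rose, while Pecam1 and Cdh5 had at most 15 reads in any library. Pou5f1 had 0 reads throughout. The part of these marker changes in the results below was not tested.

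With erastin the repressor genes E2f5, E2f6, E2f7 and E2f8 and the pocket protein gene Rbl1 fell, and 0 of the 10 genes rose. E2f1, E2f2, E2f3, E2f4 and Rbl2 did not pass the test. The count was 5 lower and 0 higher of 10 by edgeR's quasi-likelihood test at an adjusted p-value under 0.05 (0 higher also at an unadjusted p-value under 0.05 and by DESeq2). Of all 14000 genes tested 43.1% were called, 21.5% lower and 21.6% higher. The median log2 fold change of the 10 genes was -0.73, against -0.0014 over all genes tested. In all 5 called genes, and in none of the others, the erastin libraries lay outside the range of the DMSO libraries, which was true of 52.5% of all genes. Without DMSO replicate 3, which stood apart, the count was also 5 lower and 0 higher. In bulk RNA fewer cells of a type and less RNA per cell cannot be told apart.

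**Figure D1:**
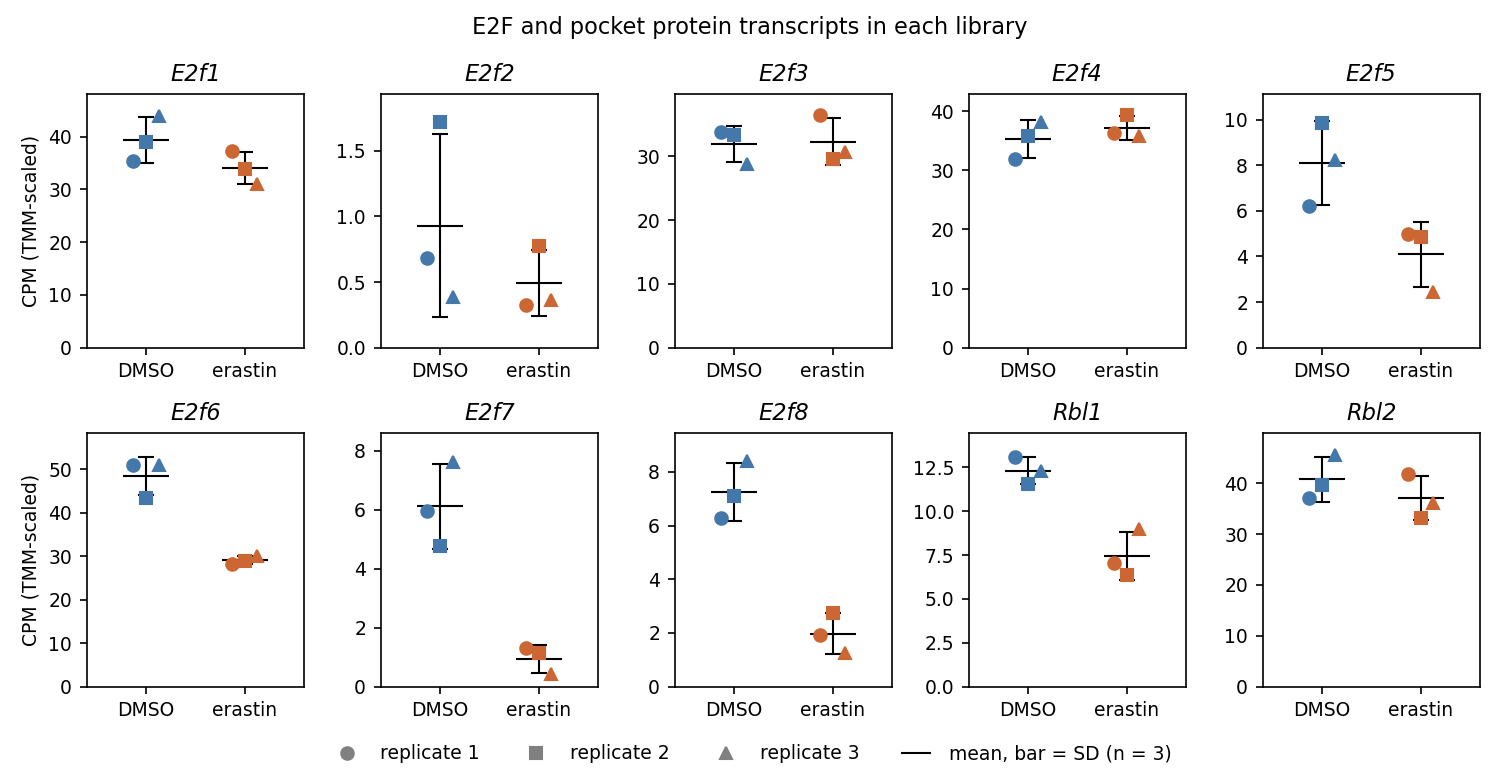
CPM of each gene (vertical axis, from 0) in the 3 DMSO and 3 erastin libraries; symbols mark replicate numbers, and bars give the mean and SD (n = 3). E2f5 to E2f8 and Rbl1 show no overlap between the groups, and the other 5 genes overlap.

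The atypical repressors had the largest changes of the 10 genes. E2f7 (ENSMUSG00000020185.12, GRCm38 chr10:110745439-110787384) is known for its role with E2f8 in shutting down E2F target genes late in S phase. E2f7 stood at 5.97, 4.77 and 7.63 CPM in DMSO replicates 1 to 3 and at 1.30, 1.14 and 0.415 CPM in erastin replicates 1 to 3, the last from 8 reads. Every erastin library was far below the lowest DMSO library. The log2 fold change was -2.67 (SE 0.44, adjusted p by edgeR = 0.00017), or 6.36-fold lower, and 1.44% of all tested genes had a larger absolute change. E2f8 (ENSMUSG00000046179.13, chr7:48866429-48881596) stood at 6.27, 7.10 and 8.41 CPM in DMSO and at 1.91, 2.75 and 1.24 CPM in erastin libraries. Its 2 groups were also far apart, with a log2 fold change of -1.89 (SE 0.34, adjusted p by edgeR = 0.000397), or 3.70-fold lower, and 3.90% of tested genes changed more. Both falls held in all 15 alternative settings, with log2 fold changes of -2.99 to -2.31 for E2f7 and -2.19 to -1.64 for E2f8.

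E2f6 (ENSMUSG00000057469.7, chr12:16810963-16839742) encodes a repressor that lacks the pocket protein binding region and works within the polycomb complex PRC1.6. It stood at 51.0, 43.3 and 51.1 CPM in DMSO and at 28.3, 28.9 and 30.1 CPM in erastin libraries. The erastin libraries lay close together and well below all DMSO libraries, and E2f6 had the smallest p-value of the 10 genes (log2 fold change -0.73, SE 0.11, adjusted p by edgeR = 6.24e-05). The call held in all 15 alternatives. E2f5 (ENSMUSG00000027552.10, chr3:14578641-14606309) encodes a repressor that binds p130. It stood at 6.20, 9.87 and 8.25 CPM in DMSO and at 4.98, 4.85 and 2.44 CPM in erastin libraries. The groups did not overlap, but DMSO replicate 1 and erastin replicate 1 were near each other (log2 fold change -0.99, SE 0.31, adjusted p by edgeR = 0.0173). Its call rested on single libraries: without DMSO replicate 2 the edgeR adjusted p-value was 0.0924 (log2 fold change -0.82) and without erastin replicate 3 it was 0.0556 (-0.72), within a range of 0.00476 to 0.0924 over its 15 alternatives.

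E2f4 (ENSMUSG00000014859.8, chr8:105297663-105305370), the main E2F of resting cells and the partner of p130 in DREAM, stood at 31.9, 35.9 and 38.2 CPM in DMSO and at 36.3, 39.5 and 35.8 CPM in erastin libraries. The groups overlapped, and the difference did not pass (log2 fold change 0.073, 95% interval -0.16 to 0.31, adjusted p by edgeR = 0.63). The interval spans small changes in either direction, and its lower bound lies above the fitted values of E2f5 and E2f6.

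Among the activators, E2f1 (ENSMUSG00000027490.13, chr2:154559407-154569892) stood at 35.4, 38.9 and 44.0 CPM in DMSO and at 37.3, 33.9 and 31.1 CPM in erastin libraries. Erastin replicate 1 lay inside the DMSO range, and E2f1 did not pass (log2 fold change -0.21, 95% interval -0.46 to 0.042, adjusted p by edgeR = 0.17). E2f3 (ENSMUSG00000016477.13, chr13:29906575-29986063) stood at 33.9, 33.3 and 28.7 CPM in DMSO and at 36.5, 29.6 and 30.7 CPM in erastin libraries. The groups overlapped, with erastin replicate 1 above every DMSO library (log2 fold change 0.014, 95% interval -0.25 to 0.28, adjusted p by edgeR = 0.938), and the sign of this value changed between settings. Gene counts do not separate E2F3a from E2F3b, the products of its 2 promoters. E2f2 (ENSMUSG00000018983.9, chr4:136172394-136196057) was close to the lowest detectable level, with 9, 31 and 5 reads in DMSO and 7, 13 and 7 in erastin libraries. DMSO replicate 2, at 1.72 CPM, was above all other libraries, which lay between 0.326 and 0.778 CPM. The difference was not detectable at this depth (log2 fold change -0.97, 95% interval -2.51 to 0.57, adjusted p by edgeR = 0.296), and without DMSO replicate 2 the log2 fold change was -0.14.

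Of the pocket protein genes, Rbl1 passed the test and Rbl2 and Rb1 did not. Rbl1 (ENSMUSG00000027641.9, chr2:157145893-157204534), whose product p107 is abundant in cycling cells, stood at 13.1, 11.5 and 12.3 CPM in DMSO and at 7.08, 6.35 and 8.97 CPM in erastin libraries. All erastin libraries were lower (log2 fold change -0.72, SE 0.20, adjusted p by edgeR = 0.00995), and the call held in all 15 alternatives, with an adjusted p-value of at most 0.0424. Rbl2 (ENSMUSG00000031666.10, chr8:91070057-91123844), whose product p130 is known from resting and senescent cells, stood at 37.1, 39.6 and 45.6 CPM in DMSO and at 41.8, 33.2 and 36.1 CPM in erastin libraries. These groups overlapped (log2 fold change -0.14, 95% interval -0.39 to 0.12, adjusted p by edgeR = 0.388). The third pocket protein gene, Rb1, had 15.1 ± 0.766 CPM with DMSO and 18.0 ± 3.27 CPM with erastin (SD, n = 3; log2 fold change 0.26, adjusted p by edgeR = 0.235).

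**Figure D2:**
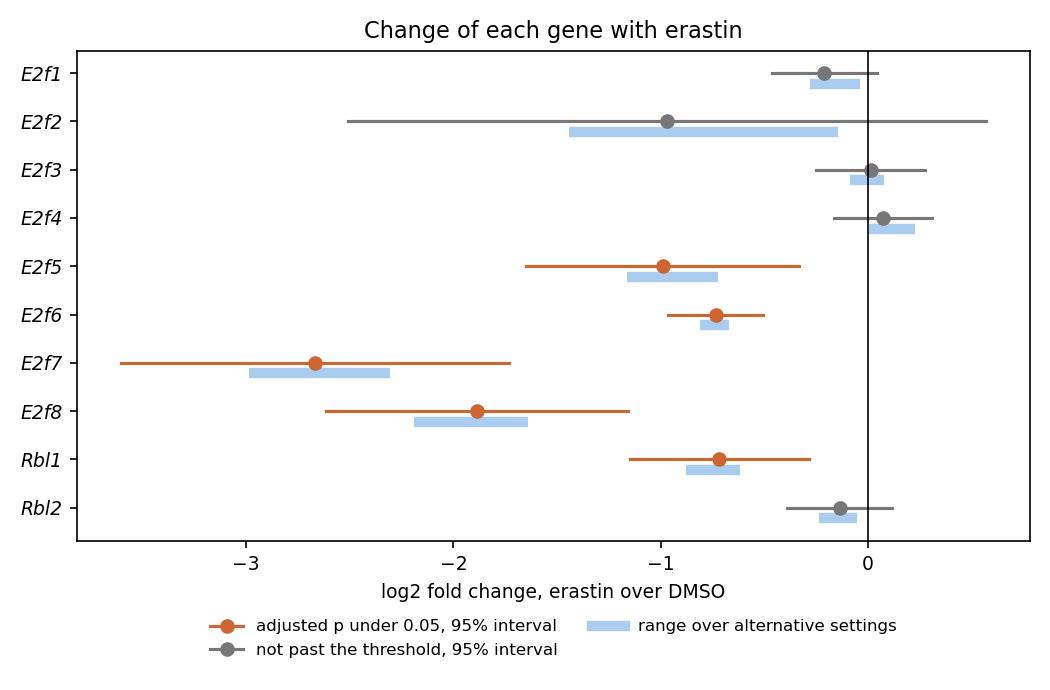
Log2 fold change of erastin over DMSO for each gene (points) with its 95% interval (thin lines), and beneath it the range over up to 15 alternative settings (thick pale lines). E2f7 at -2.67 and E2f8 at -1.89 lie farthest from 0, and the intervals of E2f1, E2f2, E2f3, E2f4 and Rbl2 include 0.

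Levels were compared between genes as CPM per kilobase of exonic length. In DMSO E2f4 (14.4 ± 1.31) and E2f1 (12.5 ± 1.37) were highest and overlapped, followed by E2f6 (8.56 ± 0.783), E2f3 (5.89 ± 0.519), Rbl2 (5.39 ± 0.579), E2f5 (4.55 ± 1.03), Rbl1 (2.05 ± 0.129), E2f8 (1.33 ± 0.198), E2f7 (0.679 ± 0.159) and E2f2 (0.19 ± 0.143; SD, n = 3 each, CPM per kilobase). Neighbours in this order overlapped only for E2f4 and E2f1, E2f3 and Rbl2, and Rbl2 and E2f5. With erastin E2f6, at 5.14 ± 0.167 CPM per kilobase (SD, n = 3), came after E2f3 at 5.95 ± 0.681, and E2f7 (0.106 ± 0.0524) overlapped E2f2 (0.1 ± 0.0514) at the bottom. E2f4 was first and E2f2 last in both groups. Scaling by the longest transcript instead moved E2f6 above E2f1 (16.1 against 14.3 CPM per kilobase) and Rbl2 above E2f3 (8.28 against 6.27) in DMSO. With erastin it put E2f6 above E2f3 (9.64 against 6.33 CPM per kilobase), the reverse of the order above, so the order of all these pairs depends on the length used. E2f7 and E2f2 with erastin kept their order by the longest transcript but stood farther apart (0.174 against 0.103 CPM per kilobase).

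**Figure D3:**
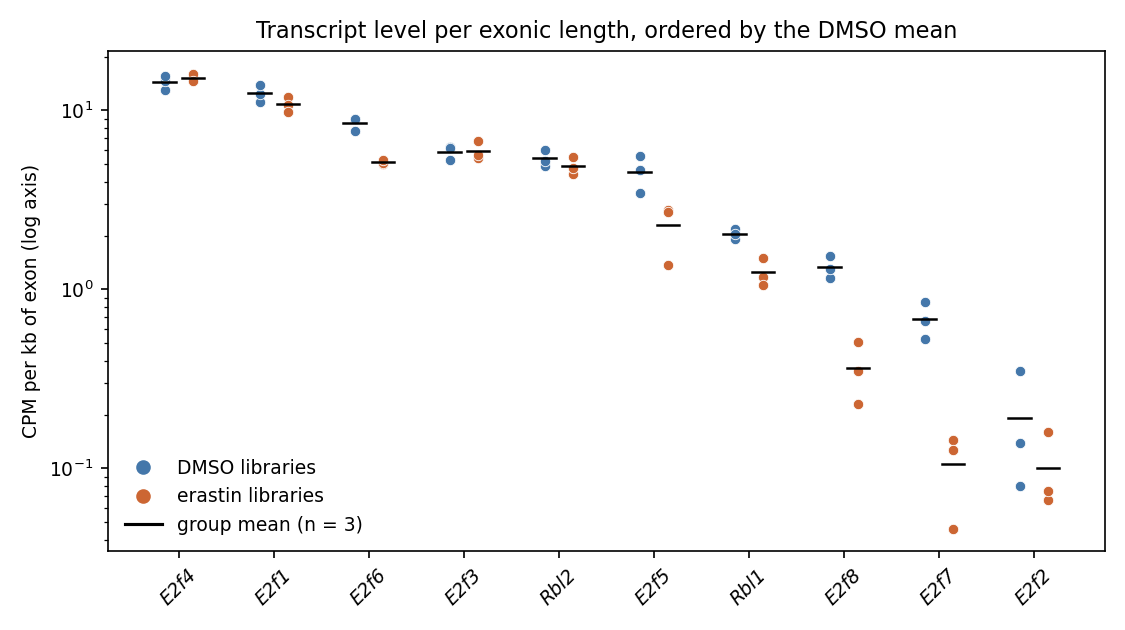
CPM per kilobase of exon (log axis) for each gene in every library, ordered by the DMSO mean; black lines are group means (n = 3). On this length scale E2f4 and E2f1 are at the top in both groups, and E2f7 drops to near the level of E2f2 with erastin.

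Ratios between 2 genes in the same library do not depend on how libraries are scaled, and are given here on the CPM per kilobase scale as a description without a test. For E2f7 over E2f1 the ratio was 0.0591, 0.0429 and 0.0607 in DMSO and 0.0122, 0.0118 and 0.00468 in erastin libraries. The atypical repressor thus stood lower against this activator in every erastin library. The ratio of E2f8 to E2f1 was 0.106 ± 0.00405 in DMSO and 0.0333 ± 0.0124 with erastin (SD, n = 3). The ratio of E2f6 to E2f4 was 0.598 ± 0.0863 and 0.340 ± 0.0237, and that of E2f5 to E2f4 was 0.314 ± 0.0576 and 0.151 ± 0.0502 (SD, n = 3). For the pocket proteins, Rbl1 over Rbl2 was 0.444, 0.367 and 0.340 in DMSO and 0.214, 0.241 and 0.313 in erastin libraries, the closest of the 5 ratios. None of the 5 ratios overlapped between the groups. Each pair set a gene that fell over a gene that did not pass the test. Lower ratios with erastin were therefore built into the choice of pairs and are not further support for the falls.

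**Figure D4:**
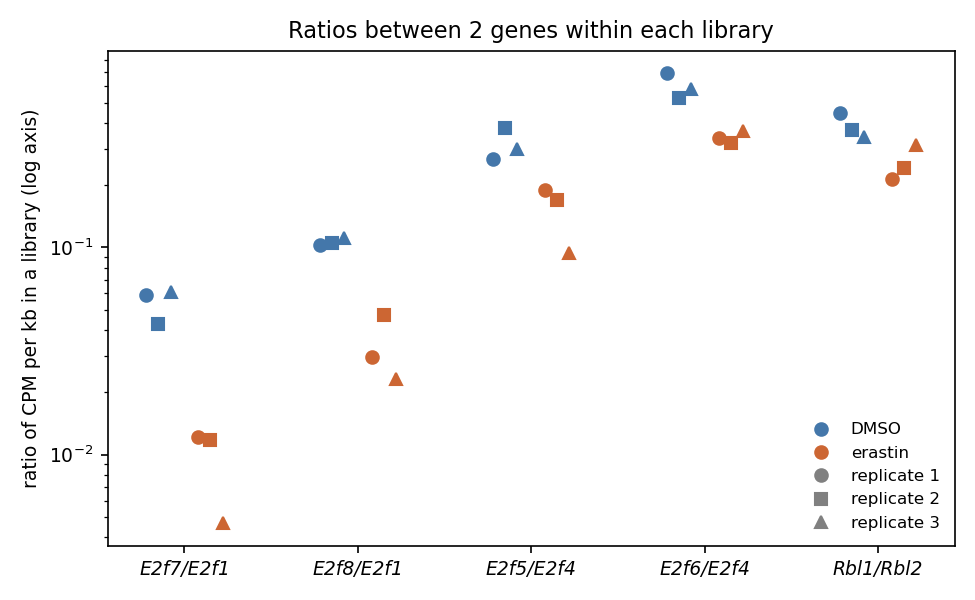
Ratio of CPM per kilobase between 2 genes within each library (log axis); colours mark treatment and symbols replicate numbers. For all 5 pairs the erastin libraries lie below the DMSO libraries, with the widest gap for E2f7 over E2f1 and the narrowest for Rbl1 over Rbl2. Each pair sets a gene that fell over one that did not pass the test.

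The overlap of the 10 genes with other annotated genes was checked. Of the 50-base words in the longest transcript, none were shared with another annotated gene for E2f2, E2f3, E2f4, E2f5, E2f6 and Rbl1, and 0.719% to 11.3% were shared for E2f7, E2f1, E2f8 and Rbl2. The shared part of E2f8 (10.5%) was all with Gm2788 on the opposite strand, which had at most 9 reads in any library. E2f5 shares 26 exonic bases with 1810022K09Rik on the opposite strand, which did not pass the test. E2f7 shares 86 exonic bases with 1700020G17Rik on the opposite strand, which had 0 reads in all libraries. The shared part of Rbl2 was with Aktip and Gm45464 on the opposite strand. Aktip had 25.8 ± 3.09 CPM with DMSO and 27.1 ± 0.753 CPM with erastin (SD, n = 3). The strand setting of the counting is not given in the sources used here, so without strand the reads of Rbl2 and Aktip in their shared exons could not be told apart, and the value of Rbl2 is uncertain to that extent. The same limit holds for the exonic bases that E2f5, E2f7 and E2f8 share with genes on the opposite strand. Low or unchanged counts of those genes do not settle it.

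Likeness across libraries was described for E2f6. The tested genes with the highest Pearson correlation of log2 CPM with E2f6 over the 6 libraries were Smo (0.999), Flna (0.999) and Ivd (0.999), and 912 genes were above 0.95. The 6 points share 2 treatments, and no test is given.

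Neither gene for the E2F dimer partners passed the test (0 of 2, also 0 at an unadjusted p-value under 0.05 and by DESeq2). Tfdp1 and Tfdp2, which encode the DP subunits that pair with E2F1 to E2F6, stood at 60.8 ± 2.07 and 27.5 ± 0.972 CPM in DMSO and at 58.0 ± 5.04 and 29.1 ± 1.74 CPM in erastin libraries (± SD, n = 3 each, adjusted p by edgeR = 0.598 and 0.613). Of 8 genes for MuvB, the DREAM kinase DYRK1A and the MYB partners, 2 rose and 1 fell, with a median log2 fold change of 0.24. Beside the count of each list here and below, 21.6% of all tested genes were called higher and 21.5% lower. Mybl2, whose product B-MYB joins MuvB in S phase, fell from 4.53 ± 0.344 to 1.2 ± 0.44 CPM (± SD, n = 3 each, with adjusted p by edgeR = 0.00173). The MuvB subunit gene Lin54 rose from 11.6 ± 2.86 to 18.7 ± 2.43 CPM and Dyrk1a from 81.8 ± 3.44 to 99.8 ± 3.23 CPM (± SD, n = 3 each, with adjusted p by edgeR = 0.0103 and 0.0101). Without erastin replicate 1 the adjusted p-value of Dyrk1a was 0.0506, the highest over its alternatives, the lowest being 0.00426. The other MuvB subunit genes, named after their values were seen, did not pass and differed in sign. Their log2 fold changes were -0.66 for Lin9, 0.53 for Lin37, 0.51 for Lin52 and 0.16 for Rbbp4 (adjusted p by edgeR of at least 0.0553).

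Upstream of the pocket proteins 10 of 16 genes for RB1, cyclins, CDKs and their inhibitors fell and 1 rose (median log2 fold change -0.63). The falls were in CDK inhibitor genes as well as cyclin and CDK genes, so the count gives no direction for CDK activity. Beside the genes below, Cdkn1c (-0.68), Cdkn2b (-0.66), Cdkn2c (-1.15) and Cdkn2d (-0.72) fell among inhibitors. Ccne1 (-0.75) and Cdk4 (-0.29) fell among cyclins and CDKs. These genes were named after their values were seen (log2 fold changes, adjusted p by edgeR of at most 0.0213). Ccnd3, for a D-type cyclin, a class that starts pocket protein phosphorylation, fell from 105 ± 7.04 to 42.9 ± 3.58 CPM, and Cdkn2a, for the kinase inhibitor INK4A and for ARF, which gene counts do not separate, from 163 ± 19.3 to 88.1 ± 9.4 CPM (± SD, n = 3 each, with adjusted p by edgeR = 8.04e-08 and 5.98e-06). The other D-type cyclin genes, named after their values were seen, had higher levels and smaller falls. Ccnd1 fell from 638 ± 44.2 to 423 ± 6.61 CPM and Ccnd2 from 2050 ± 123 to 1451 ± 45.3 CPM (± SD, n = 3 each, with adjusted p by edgeR = 8.16e-06 and 2.76e-05). Cdkn1a, for the CDK inhibitor p21, was the gene that rose, from 748 ± 34.8 to 1401 ± 44.7 CPM (± SD, n = 3 each, with adjusted p by edgeR = 7.5e-08).

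Known target genes of E2F and DREAM were given by 2 lists. In the list of 44 genes of the G1/S transition, such as replication and nucleotide enzymes, 24 fell, 1 rose and 19 did not pass, and the values ran from -3.60 to 0.79 on the log2 scale around a median of -0.67. Mcm5 of the replicative helicase had 27.9 ± 2.13 CPM in DMSO and 5.90 ± 0.0899 CPM with erastin, Tk1 (thymidine kinase) 11.1 ± 0.806 and 0.918 ± 0.193 CPM, and Pole (DNA polymerase epsilon) 17.6 ± 1.87 and 5.95 ± 1.01 CPM (± SD, n = 3 each, with adjusted p by edgeR = 4.29e-08, 2.07e-07 and 1.47e-05). Cdt1, a replication licensing factor gene named after its values were seen, was the one that rose, from 6.10 ± 0.831 to 10.6 ± 3.65 CPM (± SD, n = 3 each, with adjusted p by edgeR = 0.0228). It did not pass without DMSO replicate 1 (0.0548), DMSO replicate 2 (0.0837) or erastin replicate 2 (0.164), in a range of 0.0059 to 0.164. Of 30 G2/M genes, many of them DREAM targets, 29 fell and 0 rose (0 also at an unadjusted p-value under 0.05 and by DESeq2), with a median of -2.36. Tpx2, for a spindle assembly factor, was the one that did not pass (50.2 ± 1.42 and 42.5 ± 2.86 CPM; adjusted p by edgeR = 0.057), and was named after its values were seen. Mki67, Top2a and Ccna2, markers and drivers of division, stood at 9.07 ± 0.981, 14.4 ± 3.06 and 4.61 ± 0.622 CPM with erastin against 87.0 ± 20.4, 71.5 ± 2.14 and 33.8 ± 6.56 CPM in DMSO (± SD, n = 3 each, with adjusted p by edgeR of at most 1.95e-08). These lists hold proliferation genes already known to be lower in these libraries, so their counts are not independent support for a link to the E2F genes.

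**Figure D5:**
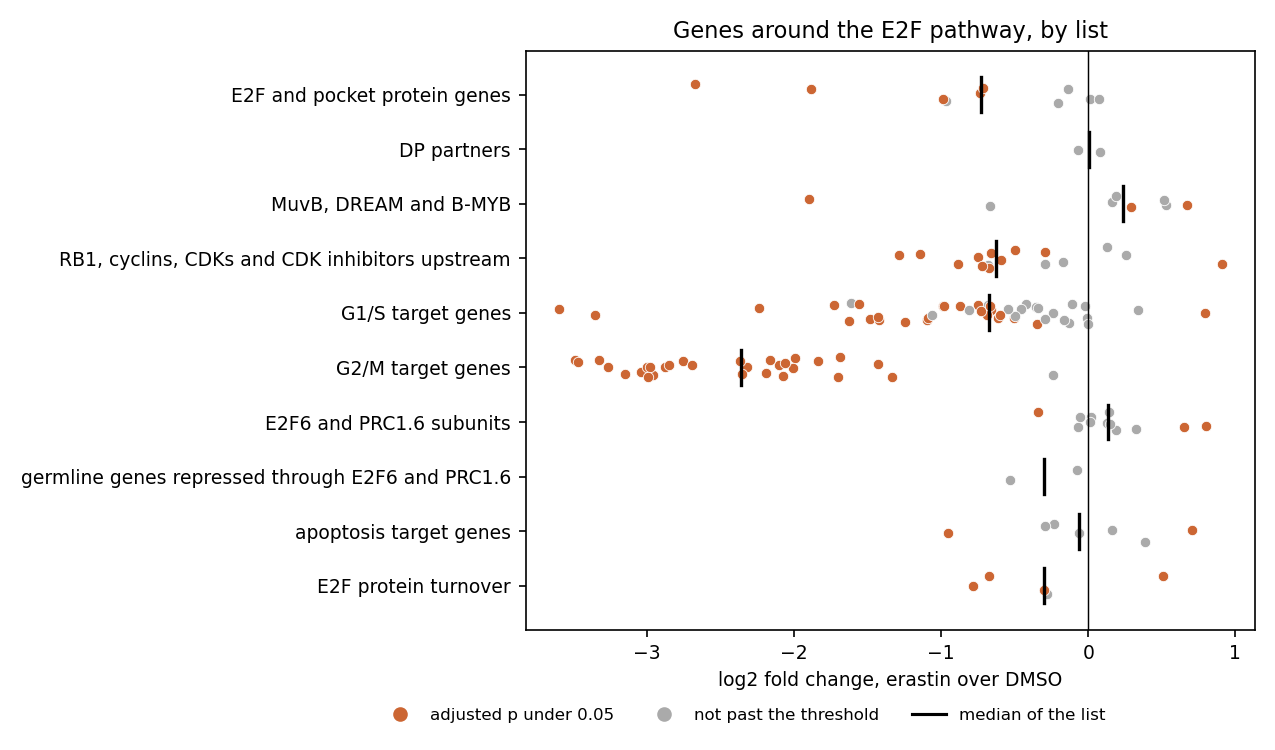
Log2 fold change of erastin over DMSO (horizontal axis) for the E2F and pocket protein genes and for the tested genes of 9 lists around them; coloured points passed at an adjusted p-value under 0.05 and black lines are medians. The G2/M list (median -2.36) lies farther from 0 than the G1/S list (-0.67), and the DP partners lie near 0.

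Partners of E2F6 were given by a list of PRC1.6 subunits. Of 12 genes 2 rose and 1 fell, with a median log2 fold change of 0.14. Over all tested genes 43.1% were called, a larger share than in this list. Rnf2, for the ubiquitin ligase subunit, rose from 45.4 ± 0.368 to 71.2 ± 5.93 CPM (± SD, n = 3 each, with adjusted p by edgeR = 5.09e-05). Hdac1 (52.0 ± 5.03 and 40.9 ± 1.99 CPM; adjusted p by edgeR = 0.0141) was the lower one, and did not pass without DMSO replicate 3 (0.0537) or erastin replicate 1 (0.0669). Pcgf6, the PRC1.6 core subunit, had 6.24 ± 3.09 and 10.8 ± 2.79 CPM (± SD, n = 3 each, with adjusted p by edgeR = 0.0496), with overlapping groups and a pass in 8 of 15 alternatives (adjusted p-values 0.00268 to 0.181). Each single library left out except DMSO replicate 3 and erastin replicate 2 ended its call.

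Of 5 genes for the degradation of E2F proteins, 3 fell and 1 rose. Skp2 and Ccnf, for the F-box proteins SKP2 and cyclin F, fell from 17.3 ± 3.22 to 10.1 ± 1.15 CPM and from 17.4 ± 1.89 to 10.9 ± 0.991 CPM, and the scaffold gene Cul1 rose from 85.0 ± 5.39 to 121 ± 5.76 CPM (± SD, n = 3 each, with adjusted p by edgeR = 0.00319, 0.00426 and 0.000174). Skp1a was lower by the test (log2 fold change -0.30, adjusted p by edgeR = 0.03), with overlapping groups and adjusted p-values of 0.0688 to 0.141 in the 4 fits without DMSO replicate 1, DMSO replicate 2, erastin replicate 1 or erastin replicate 2. Fzr1, an activator of the anaphase-promoting complex, did not pass (log2 fold change -0.28, adjusted p by edgeR = 0.0672), though it did without erastin replicate 2 (0.0317). Of 8 genes for apoptosis described as E2F1 targets, 7 were tested and 1 rose. Pmaip1, for the BH3-only protein NOXA, rose from 63.3 ± 5.22 to 103 ± 7.57 CPM, and Bbc3 (24.0 ± 6.3 and 31.4 ± 1.7 CPM) did not pass (± SD, n = 3 each, with adjusted p by edgeR = 2.4e-05 and 0.075). Bbc3, for the BH3-only protein PUMA, passed in 5 of 15 alternatives, among them the fit without DMSO replicate 2 (0.0422), in a range of 0.00122 to 0.266.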

How the data were processed

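Total RNA of 6 samples, 3 DMSO and 3 erastin, was depleted of ribosomal RNA, amplified by PCR without molecular identifiers named, and sequenced on an Ion Proton, per the labels. The authors deposited whole-number counts for 43346 genes, not normalized. The submitters' processing notes name HTSeq 0.9.1, SAMtools and mm10; the aligner, annotation and strand setting are not given in the sources used here. Columns were matched through the sample numbers in the labels, and 0 columns were left unused. The members and lists were chosen with earlier results of these data known.

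Identifiers were matched without version to GENCODE M21 (42462 of 43346). Counts were fitted with edgeR 4.0.16 (limma 3.58.1, R 4.3.3). Low counts were filtered with filterByExpr (minimum count 10 in at least 3 libraries, total 15). It applies the minimum as the CPM of 10 reads at the median library size. The fit used TMM factors, glmQLFit and glmQLFTest with treatment as the only term, and Benjamini-Hochberg adjustment over 14000 genes at 0.05. The SE is the absolute coefficient divided by the square root of F. Named were the 10 members, for each list its 3 genes of smallest p (every gene in lists of up to 5) and the 3 genes most like the member with the smallest p-value. Others were chosen after their values were seen. The result of 1 gene named by this rule is not reported here. Alternatives were other scalings and filters, a replicate block, leaving out each library, DESeq2 1.42.0 and an offset for GC content and length (mgcv 1.9.3). The procedure was tested on simulated data. Total counts were 13333911 to 20509970 per library.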

Additional observations from a re-analysis of the deposited data

How the results depend on the processing

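The count of 5 lower and 0 higher genes was the same under RLE, upper-quartile and total-count scaling, both other filters, the replicate block, the GC and length offset with and without the block, and DESeq2. Tightening the adjusted p-value to 0.01 gave 4 lower, and leaving out 1 library at a time gave 4 to 5 lower. G1/S genes lower numbered 20 to 27 and G2/M genes lower 28 to 30 over the alternatives. Among the short lists, with the reported count first, genes higher were 1 and 0 to 2 for G1/S, 2 and 1 to 4 for PRC1.6, 2 and 1 to 3 for MuvB, 1 and 1 to 2 for apoptosis and 0 and 0 to 1 for germline genes. Genes lower were 1 and 0 to 1 for PRC1.6 and 1 and 1 to 2 for MuvB. E2f3, reported at 0.014, was -0.0397 with upper-quartile factors, -0.030 with the GC and length offset and -0.032 with the offset and the replicate block, and ran from -0.085 to 0.073 when 1 library was left out. Tfdp2, reported at 0.08, was -0.016 with the offset and -0.016 with the offset and the block. Tdrkh, reported at -0.074, ran from -0.171 to 0.0392 when 1 library was left out. Tpx2, the G2/M gene that did not pass (-0.24, adjusted p by edgeR = 0.057), passed with upper-quartile factors and with the offset. The cause was not tested. E2f2 had no value under the filter of 1 CPM in 3 libraries, which it did not pass. Upper-quartile factors and total-count scaling shifted the all-gene median, -0.0014 as reported, to -0.055 and 0.065, and the share of calls that were higher from 50.2% to 44.0% and 57.1%. The replicate block changed no call among the 10 genes, with 5 lower. Equally numbered libraries deviated with correlations of -0.0055 to 0.0401, so the numbers were not taken to pair them. Depth limits E2f2, and E2f7 with erastin, where 8 to 28 reads were counted.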

Other observations

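Germline genes that are known to be silenced through E2F6 and PRC1.6 were mostly at or near 0. Of 10 such genes 2 were tested, Stag3 (3.74 ± 1.13 and 2.60 ± 0.28 CPM in DMSO and erastin libraries) and Tdrkh (3.47 ± 0.328 and 3.30 ± 0.497 CPM), and neither passed (± SD, n = 3 each, with adjusted p by edgeR = 0.26 and 0.881). Taf7l, which encodes a germ cell form of a TFIID subunit and was named after its values were seen, had 0 reads in all 3 DMSO libraries and 23, 3 and 17 reads in erastin replicates 1 to 3. Erastin replicate 2 was thus at the lowest detectable level of 3 reads. Taf7l did not reach the filter on low counts; without the filter its edgeR adjusted p-value was 0.000758, and by DESeq2 it was 0.00266. Ddx4 had 3, 0 and 0 reads in DMSO and 7, 6 and 9 in erastin libraries, and did not pass without the filter (adjusted p by edgeR = 0.297) or by DESeq2 (0.278). Smc1b had 1, 19 and 4 reads in DMSO and 3, 0 and 4 in erastin libraries, and did not pass either (0.312 and 0.295). Slc25a31, Tuba3a and Mael had 1 read in 1 library each, Stk31 had 4 reads in erastin replicate 1, and Dazl had 0 reads throughout.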
